A study of Homo sapiens with 17 samples.

Results

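The RAS genes HRAS, NRAS, RRAS, RRAS2 and MRAS and the estrogen receptor gene ESR1 were followed through 5 states of BJ cells, a human foreskin fibroblast line immortalized with hTERT. These 6 rows, of 9699 in the deposited table, were chosen by gene symbol with their FPKM values known, so the levels and changes below are a description and carry no test. Each row is 1 Ensembl transcript per gene: ENST00000451590 for HRAS, ENST00000369535 for NRAS, ENST00000246792 for RRAS, ENST00000545643 for RRAS2, ENST00000289104 for MRAS and ENST00000440973 for ESR1. FPKM is fragments per kilobase of transcript scaled to the number of mapped fragments, and the authors raised every value under 1.0 to a floor of 1.0. For each state the table gives an RNA-Seq level (the amount of mRNA) and a Ribo-Seq level (ribosome footprints, the amount of mRNA being translated). Translation efficiency (TE) is log2 of the Ribo-Seq level divided by the RNA-Seq level.

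The labels name hTERT in every state, and nothing further for proliferating cells in serum and for quiescent cells deprived of serum. Pre-senescent and senescent cells carried a tamoxifen-inducible RASG12V and were sampled 5 days and 14 days, respectively, after 4-OHT-tamoxifen was added at 1e-07 M. Cells labelled transformed carried a knockdown of p16INK4A, SV40 small T, and RASG12V from the retroviral vector pBabe-puro, without the inducible part. The 17 samples (9 RNA-Seq, 8 Ribo-Seq) appear as 12 columns, of which 5 combine samples 1 and 2 in a way that is not given in the sources used here and 7 hold 1 sample. A state therefore had 1 column per assay and sequencer run, with no replicate spread, and depth is not given in the table. Quiescence and pre-senescence shared run 1 with the combined proliferating column, while senescence and the transformed state shared run 2 with another proliferating column. Each state was set against the proliferating column of its own run. The difference between the proliferating columns, run 2 minus run 1, gives the scale on which a row moved with no change of state, and it mixes run, culture and library type (paired-end in run 1, single-end in run 2 for RNA-Seq).

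RAS proteins are small GTPases at the inner face of the plasma membrane that switch on when they bind GTP and off when they hydrolyse it. Exchange factors such as SOS1 load GTP, GTPase activating proteins such as NF1 speed its hydrolysis, and RAF, PI3 kinase and RALGDS are among the effectors. The G12V change keeps RAS in the GTP-bound form, and a strong RAS signal is known to drive normal fibroblasts into senescence. ESR1 encodes estrogen receptor alpha, a nuclear hormone receptor. Fusing the hormone-binding part of an estrogen receptor to a protein holds that protein inactive until tamoxifen is added, which is how the inducible RAS used here is built. Reads of such a fusion can be counted in the HRAS and ESR1 rows, and the table does not separate them from reads of the native genes. How much of either row came from a construct cannot be told apart from these values.

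The samples and the engineered genes were checked first. The Ribo-Seq samples titled as senescence and as the run 2 proliferating sample carry each other's condition label. They were grouped by title, and across 9497 rows the senescence minus proliferation difference in RNA-Seq and in Ribo-Seq then had r = 0.83, a description across genes of the same libraries. CDKN2A, which encodes p16INK4A, was listed in RNA-Seq at 12.64 FPKM in the transformed column against 6.75 in proliferation of the same run. Proliferation of run 1 was at 17.19 FPKM, so the transformed value lay between the proliferating columns. CDKN2A was at 30.61 FPKM in quiescence, 14.23 FPKM in pre-senescence and 27.94 FPKM in senescence. Against proliferation of run 2, at 8.92 FPKM, Ribo-Seq went the other way, at 5.51 FPKM in the transformed column and 6.33 in senescence. TERT, the catalytic subunit of telomerase, was above the floor in every column, in RNA-Seq from 3.39 FPKM in quiescence to 48.85 FPKM in the transformed column. All 10 fibroblast markers had a row, with VIM (vimentin) at 2955.66 to 4881.25 FPKM in RNA-Seq. COL1A1, a collagen chain, ranged in RNA-Seq from 51.57 FPKM in senescence to 1328.21 FPKM in proliferation of run 2.

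The native HRAS and NRAS promoters are shown because the retroviral copy is driven by the vector and not by these sequences. Both hold GC boxes (GGGCGG on either strand, the classical SP1 site) within 250 bases before the RefSeq start, 3 in HRAS and 2 in NRAS, and 42.6% of 35116 promoters hold at least 1. Of the 6 genes 5 matched the RefSeq promoter table (GRCh38.p14). The 30 bases below are given 5′ to 3′ on the minus strand with the GC box in capitals, at chr11:535577-535606 for HRAS and at chr1:114716801-114716830 for NRAS.
HRAS: agacggacgggcgcgGGGCGGggcgtgcgc
NRAS: cccacgtggccgGGGCGGggactcaggcgc
A match to these letters is a description and not a mapped site.

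HRAS was by far the most abundant of the RAS genes followed here, and its level was lowest in the cells labelled transformed. In RNA-Seq it was listed at 2415.28 FPKM in proliferation, 1253.69 FPKM in quiescence and 2102.25 FPKM in pre-senescence in run 1. In run 2 it was listed at 1283.52 FPKM in proliferation, 2087.48 FPKM in senescence and 311.51 FPKM in the transformed column. The proliferating column of run 1, whose label names no RAS construct, was the highest of all 6, above both columns with induced RASG12V. Among the 9699 rows HRAS ranked 8, 22 and 12 in the run 1 columns and 16, 10 and 173 in the run 2 columns. Ordered by level, the step from quiescence down to the transformed column, 2.01 on the log2 scale, was larger than the difference of 0.91 between the proliferating columns, and no other neighbouring step was.

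In Ribo-Seq, HRAS was listed at 4768.88, 3441.9 and 4427.87 FPKM in proliferation, quiescence and pre-senescence of run 1. It was listed at 2057.82, 4009.57 and 212.3 FPKM in proliferation, senescence and the transformed column of run 2. The transformed column was again the lowest, 9.69-fold below proliferation of its run and 18.9-fold below senescence. HRAS made up 86.9% to 94.4% of the summed RNA-Seq FPKM of the 5 RAS family rows in the other columns and 67.8% in the transformed column. In Ribo-Seq that share was 90.4% to 96.9% in the other columns and 60.8% in the transformed column. HRAS exceeded NRAS, a row in which no reads of the RAS vectors are expected, 45.1- to 131-fold in RNA-Seq outside the transformed column and 12.4-fold in it.

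**Figure D1:**
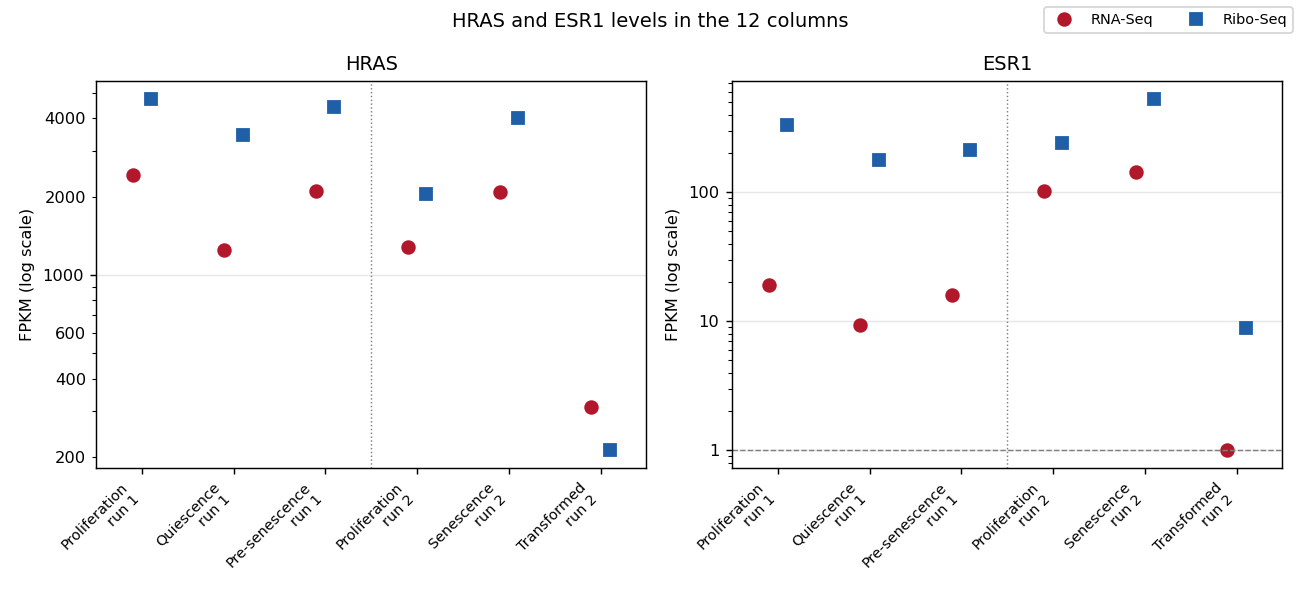
HRAS (left) and ESR1 (right) in RNA-Seq (circles) and Ribo-Seq (squares), in FPKM on a log axis, for each state and run. Each point is 1 column with no replicate, the dotted line parts the runs and the dashed line is the floor of 1.0. The transformed column is the lowest for both genes in both assays, at 311.51 and 212.3 FPKM for HRAS and at 1.0 and 8.84 FPKM for ESR1.

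ESR1 was above the floor in every column of the cells that carried no plain RASG12V vector, proliferating and quiescent cells included. It was lowest in the transformed column in both assays. In RNA-Seq it was listed at 19.22, 9.31 and 15.86 FPKM in proliferation, quiescence and pre-senescence of run 1. In run 2 it was listed at 101.87 FPKM in proliferation and 144.22 FPKM in senescence, and at the floor of 1.0 in the transformed column. All run 1 columns thus lay below the proliferating and senescent columns of run 2, and the proliferating columns differed 5.30-fold. The quiescent value of 9.31 FPKM was under the median row of its column, 13.35 FPKM, and ranked 6098 of 9699. In Ribo-Seq the levels were 331.6, 177.19 and 214.28 FPKM in run 1, and 242.33, 531.53 and 8.84 FPKM in proliferation, senescence and the transformed column of run 2. Here the runs overlapped, and the proliferating columns differed by 0.45 on the log2 scale.

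Epithelial cells that express ESR1 were considered through a list of 13 luminal mammary markers, of which KRT8, KRT18 and KRT19, keratins of simple epithelia, had a row. CDH1, EPCAM, GATA3 and FOXA1 were among the 10 with none. The summed RNA-Seq level of the 3 keratins was 197.54, 105.15 and 133.51 FPKM in run 1 and 312.56, 135.67 and 208.19 FPKM in run 2, in the order used above. KRT19 stood at 39.76 FPKM in proliferation of run 2 and at 1.0 to 4.43 FPKM in the other RNA-Seq columns. In senescence ESR1 was higher than in proliferation of run 2, and all 3 keratins were lower, by 1.03 to 3.17 on the log2 scale. In the transformed column ESR1 and all 3 keratins were lower than in proliferation of run 2. KRT8 was at 8.19 FPKM there against 15.33, KRT18 at 199.0 against 257.47 and KRT19 at 1.0 against 39.76. The part of epithelial cells in the ESR1 values was not tested. None of the 3 endothelial markers had a row, and of the 3 leukocyte markers CD68 had.

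HRAS and ESR1 stood in a different ratio in each run. In RNA-Seq, HRAS was 126-, 135- and 133-fold above ESR1 in the proliferating, quiescent and pre-senescent columns of run 1. In the proliferating and senescent columns of run 2 it was 12.6- and 14.5-fold above. In Ribo-Seq these ratios were 14.4, 19.4 and 20.7 in run 1 and 8.49 and 7.54 in run 2, so the gap between runs was narrower on footprints. The transformed column had a Ribo-Seq ratio of 24.0, and its RNA-Seq ratio has only a lower bound of 312, since ESR1 was at the floor.

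ESR1 had the highest TE of the 6 genes in every column, and in run 1 among the highest of all rows. Its TE was 4.11 in proliferation, 4.25 in quiescence and 3.76 in pre-senescence, where 15 of 9139, 7 of 9316 and 17 of 9138 rows above the floor had a higher TE. In run 2 it was 1.25 in proliferation and 1.88 in senescence, with 1758 of 9336 and 655 of 8997 rows higher. The median row stood between 0.26 and 0.43 in the proliferating columns of both runs and the 4 other states. Between the proliferating columns the TE of ESR1 was lower in run 2 by 2.86 on the log2 scale, and only 1 other row was lower by as much. RNA-Seq FPKM is counted over the whole annotated transcript and Ribo-Seq FPKM over its coding part, which matters for a row whose reads may cover part of the transcript. HRAS had a TE of 0.98, 1.46 and 1.07 in run 1 and of 0.68 and 0.94 in proliferation and senescence of run 2. It was above the median row in these 5 columns and below it in the transformed column, at −0.55.

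The other RAS family genes lay far below HRAS and moved within narrower ranges. NRAS, a classical RAS GTPase, was listed in RNA-Seq at 28.42, 27.8 and 36.67 FPKM in proliferation, quiescence and pre-senescence of run 1, and at 25.82, 15.92 and 25.15 FPKM in proliferation, senescence and the transformed column of run 2. In Ribo-Seq the levels were 42.71, 22.26 and 27.02 FPKM in run 1 and 28.34, 15.56 and 31.37 FPKM in run 2. Senescence was the lowest column in both assays. The step from the transformed column down to senescence in RNA-Seq, 0.66 on the log2 scale, exceeded the 0.14 between the proliferating columns, while in Ribo-Seq no neighbouring step exceeded their difference of 0.59. Such a difference is 1 value per gene and can be small for a gene that varies. Over 8414 rows above the floor in every column, the SD of the proliferating columns was 0.39 in RNA-Seq and 0.533 in Ribo-Seq.

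RRAS, an R-RAS GTPase known for its part in integrin-mediated adhesion, had its highest RNA-Seq level in senescence without a matching Ribo-Seq level. It was listed in RNA-Seq at 53.78, 87.43 and 53.17 FPKM in run 1 and at 95.65, 150.99 and 84.29 FPKM in run 2. In Ribo-Seq it was listed at 89.99, 95.15 and 42.55 FPKM in run 1 and at 90.39, 62.19 and 41.55 FPKM in run 2. The proliferating columns were within 0.01 of each other on the log2 scale in Ribo-Seq, and pre-senescence, senescence and the transformed column all lay below them. That closeness is 1 value, and the SD over all rows was 0.533, near the senescence change of −0.54. The TE of RRAS was 0.74, 0.12 and −0.32 in run 1 and −0.08, −1.28 and −1.02 in run 2. In RNA-Seq the proliferating columns differed by 0.83 on the log2 scale, more than the 0.66 between senescence and proliferation of run 2. In TE the proliferating column of run 2 was lower than that of run 1 by 0.82, and senescence was lower than proliferation of run 2 by 1.20.

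RRAS2, the closely related R-RAS family member also called TC21, was listed in RNA-Seq at 53.38, 35.37 and 44.99 FPKM in run 1 and at 56.05, 65.94 and 31.69 FPKM in run 2. In Ribo-Seq it was listed at 142.8, 53.77 and 72.45 FPKM in run 1 and at 87.14, 122.1 and 60.03 FPKM in run 2. Quiescence and the transformed column were the lowest pair in both assays, and the other columns lay above them. Its TE, from 0.60 to 1.42, was above the median row in every state and run.

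MRAS, which works with SHOC2 in a phosphatase complex that activates RAF, was the least abundant of the 5 RAS family rows in every column except senescence in RNA-Seq, where NRAS was lower. It was listed in RNA-Seq at 7.16, 7.9 and 7.64 FPKM in run 1 and at 16.75, 16.46 and 7.13 FPKM in run 2. In Ribo-Seq it was listed at 2.15, 5.71 and 1.07 FPKM in run 1 and at 12.77, 7.9 and 4.07 FPKM in run 2, the pre-senescent value being just above the floor. The proliferating columns differed by 1.23 in RNA-Seq and 2.57 in Ribo-Seq on the log2 scale, and no step between neighbouring columns exceeded that in either assay.

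**Figure D2:**
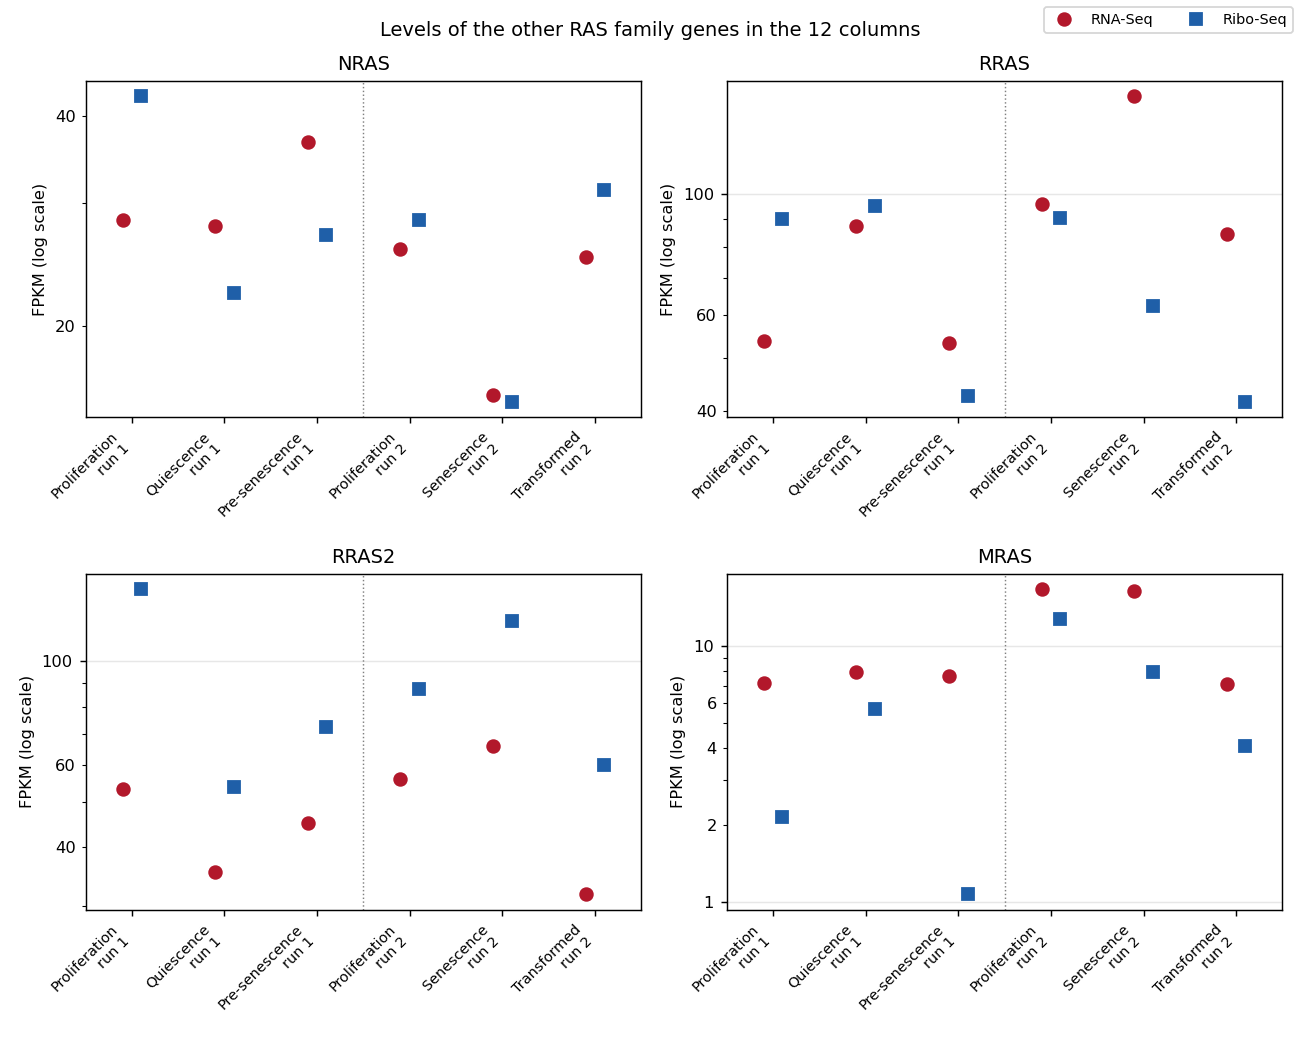
NRAS, RRAS, RRAS2 and MRAS in RNA-Seq (circles) and Ribo-Seq (squares), in FPKM on log axes that differ between panels, with the dotted line between the runs. Each point is 1 column with no replicate, and the highest value of any of the 4 genes is 150.99 FPKM in RNA-Seq and 142.8 FPKM in Ribo-Seq.

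The changes against the proliferating column of the same run were read with a 2-fold mark, beside the share of all rows past it in either direction. Rows entered where a compared value was above the floor, which held for all 6 genes in RNA-Seq and Ribo-Seq. For TE all values had to be above the floor, which leaves ESR1 out wherever the transformed column enters. The median of all rows lay between −0.02 and 0.09 in RNA-Seq, between −0.12 and 0.01 in Ribo-Seq and between −0.15 and −0.04 in TE for the 4 states.

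In quiescence, ESR1 was past 2-fold in RNA-Seq, 2.06-fold lower, where 6.53% of rows were past it. This change, −1.05 on the log2 scale, was smaller than the ESR1 difference of 2.41 between the proliferating columns. HRAS was lower by 0.95 on the log2 scale, close to its difference between the proliferating columns. In Ribo-Seq, where 17.5% of rows were past 2-fold, RRAS2 was 2.66-fold lower and MRAS was 2.66-fold higher. MRAS was also the gene past 2-fold in TE, higher by 1.27 on the log2 scale, where 7.06% of rows were past it. Both MRAS values were smaller than its differences between the proliferating columns, 2.57 in Ribo-Seq and 1.34 in TE. Of the 10 fibroblast markers 2 were past 2-fold higher in RNA-Seq and 5 in Ribo-Seq, and their part in these values was not tested.

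In pre-senescence, none of the 6 genes was past 2-fold in RNA-Seq, where 3.87% of rows were, and no test was run. With RASG12V induced for 5 days HRAS was lower by 0.20 in RNA-Seq and by 0.11 in Ribo-Seq on the log2 scale, the latter 0.02 above the median row. ESR1 was lower by 0.28 and 0.63. RRAS and MRAS were past 2-fold in Ribo-Seq at −1.08 and −1.01, where 17.9% of rows were past it. NRAS, RRAS and MRAS were past it in TE at −1.03, −1.06 and −1.10, where 13.2% of rows were. These 5 values were under 2-fold once the median row was subtracted, at −0.96 and −0.88 in Ribo-Seq and at −0.88, −0.92 and −0.95 in TE. Of the 10 fibroblast markers 5 were past 2-fold lower in RNA-Seq and 3 in Ribo-Seq, and their part in these values was not tested.

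In senescence, after 14 days of induction, HRAS was 1.63-fold higher in RNA-Seq and 1.95-fold higher in Ribo-Seq. ESR1 was 1.42- and 2.19-fold higher. None of the 6 genes was past 2-fold in RNA-Seq, where 20.4% of rows were. In Ribo-Seq, where 28.0% of rows were past it, ESR1 was, and HRAS reached 1.08 on the log2 scale after the median row was subtracted. RRAS was past 2-fold in TE, lower by 1.20 on the log2 scale, where 8.55% of rows were past it. The HRAS changes were smaller than or close to those between the proliferating columns, 0.91 in RNA-Seq and 1.21 in Ribo-Seq. With the Ribo-Seq condition labels in place of the titles, the Ribo-Seq values of HRAS and ESR1 change sign. Of the 10 fibroblast markers 7 were past 2-fold lower in RNA-Seq and 7 in Ribo-Seq, with medians of −2.02 and −1.98, and their part in these values was not tested.

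In the transformed column, HRAS was 4.12-fold lower in RNA-Seq and 9.69-fold lower in Ribo-Seq than proliferation of the same run. Among all rows 150 were lower by as much in RNA-Seq and 47 in Ribo-Seq. ESR1 was at least 102-fold lower in RNA-Seq, which no other row matched, and 27.4-fold lower in Ribo-Seq, which 8 rows matched. MRAS was past 2-fold as well, lower by 1.23 in RNA-Seq and by 1.65 in Ribo-Seq on the log2 scale, and RRAS in Ribo-Seq, lower by 1.12. The MRAS values were close to or smaller than its differences between the proliferating columns, 1.23 in RNA-Seq and 2.57 in Ribo-Seq. The share of rows past 2-fold was 10.4% in RNA-Seq, 12.8% in Ribo-Seq and 2.69% in TE, and in TE HRAS was past it, lower by 1.23 on the log2 scale with 67 rows as low. NRAS differed by −0.04 in RNA-Seq and 0.15 in Ribo-Seq on the same scale. Of the 10 fibroblast markers 4 were past 2-fold lower in this column in RNA-Seq and 7 in Ribo-Seq, with none higher, and their part in these values was not tested.

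Senescence and the transformed column both carried RASG12V and shared run 2, and HRAS differed 6.70-fold between them in RNA-Seq and 18.9-fold in Ribo-Seq, higher in senescence. ESR1 was at least 144-fold higher in RNA-Seq and 60.1-fold higher in Ribo-Seq in senescence. RRAS2 was 2.08-fold higher in RNA-Seq and 2.03-fold higher in Ribo-Seq, and MRAS was 2.31-fold higher in RNA-Seq. NRAS went the other way, 2.02-fold lower in Ribo-Seq in senescence. Of all rows 23.5% were past 2-fold in RNA-Seq, 30.3% in Ribo-Seq and 4.97% in TE, where HRAS was higher by 1.49 on the log2 scale and was the only one of the 5 genes compared that was past it.

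Between the proliferating columns themselves, ESR1 and MRAS were past 2-fold in RNA-Seq, higher in run 2 by 2.41 and 1.23 on the log2 scale, where 7.97% of rows were past it. In Ribo-Seq, where 18.9% of rows were, MRAS was higher by 2.57 and HRAS lower by 1.21. In TE, where 8.51% of rows were, MRAS was higher by 1.34 and ESR1 lower by 2.86. Of the fibroblast markers 6 of 10 were past 2-fold higher in run 2 in RNA-Seq and 7 of 10 in Ribo-Seq. Run, library type and culture cannot be told apart here, and the markers' part in the values of the 6 genes was not tested.

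The genes that regulate RAS, and the effectors and relatives after them, are set beside the shares of all rows past 2-fold in RNA-Seq, 6.53% in quiescence, 3.87% in pre-senescence, 20.4% in senescence and 10.4% in the transformed column. Of the exchange factors 3 of 8 had a row, and RASGRF2, past 2-fold in RNA-Seq in the transformed column, was higher there by 2.16 on the log2 scale, at 16.74 FPKM against 3.75. The proliferating column of run 2 was itself below that of run 1 for this gene, by 1.68 on the log2 scale. Of the GTPase activating proteins 7 of 10 had a row, and those past 2-fold in RNA-Seq were DAB2IP in senescence, at −1.26, and RASA2 in the transformed column, at −1.03. Of the genes for RAS lipid processing and scaffolding 12 of 14 had a row, and ZDHHC9, part of the enzyme that palmitoylates HRAS and NRAS, was higher in senescence by 1.25, from 16.42 to 39.04 FPKM. No other gene of these 3 lists was past 2-fold in RNA-Seq in any of the 4 states, and with so few rows the counts are read as values only.

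Among the effectors, 13 of 17 had a row. In the transformed column PIK3CD, a catalytic subunit of PI3 kinase, was higher by 1.92 in RNA-Seq on the log2 scale, and RIN1, named because it was the other gene past 2-fold higher, was higher by 1.08. RASSF1 was lower by 1.08 there, and PLCE1, a phospholipase C that binds RAS, was at the floor in senescence and in the transformed column, at least 2.22-fold lower in both. Of the RAP, RAL and RHEB relatives 9 of 20 had a row. RALA, the GTPase downstream of the effector RALGDS, was higher in senescence by 1.80, from 35.37 to 123.51 FPKM. DIRAS3 was lower in quiescence by 1.45, at 1.08 FPKM, just above the floor, against 2.95, and higher in pre-senescence by 1.35. Its Ribo-Seq level was not lower in quiescence, at 3.7 FPKM against 3.39, and was 13.34 FPKM in pre-senescence. All 4 MAPK kinases had a row, and none was past 2-fold in RNA-Seq in any of the 4 states, which with 4 rows says little beside shares of 3.87% to 20.4%.

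Genes whose transcription follows ERK activity, the last kinase of the RAF pathway, were read in RNA-Seq against the share of all rows past 2-fold higher. Their share was above it in pre-senescence, senescence and the transformed column, and near it in quiescence, with 1 gene. By the list median quiescence did not stand apart, at 0.53 on the log2 scale against 0.46 in senescence. In Ribo-Seq 6 of 16 were past 2-fold higher in quiescence, where 9.31% of all rows were. Of 18 genes 16 had a row. In RNA-Seq, 1 of 16 was past 2-fold higher in quiescence, where 4.11% of all rows were, and 5 of 16 in pre-senescence, where 1.82% were. In senescence 4 of 16 were higher, where 7.19% of rows were, and in the transformed column 10 of 16, where 4.97% were. None of the 16 was past 2-fold lower in RNA-Seq in these states, where 2.43%, 2.05%, 13.2% and 5.39% of all rows were. The median of the list was 0.53, 0.61, 0.46 and 1.16 on the log2 scale, against −0.01, 0.04, −0.02 and 0.09 over all rows. The ERK phosphatase gene DUSP4 was higher in senescence by 2.25, and in the transformed column ETV4, an ETS factor, was higher by 2.10 and PHLDA1 by 2.01. All 3 were lower in the proliferating column of run 2 than of run 1, by 1.15, 0.88 and 1.04. In Ribo-Seq 6, 5, 3 and 8 of the 16 were past 2-fold higher in these states, where 9.31%, 7.31%, 11.2% and 5.34% of all rows were. In senescence 3 of the 16 were past it in the other direction in Ribo-Seq, where 16.8% of rows were. Between the proliferating columns 3 of the 16 were past 2-fold lower in run 2 in RNA-Seq, where 3.05% of all rows were. None was past 2-fold higher, where 4.93% of all rows were. The run 2 column is the reference for senescence and the transformed column.

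**Figure D3:**
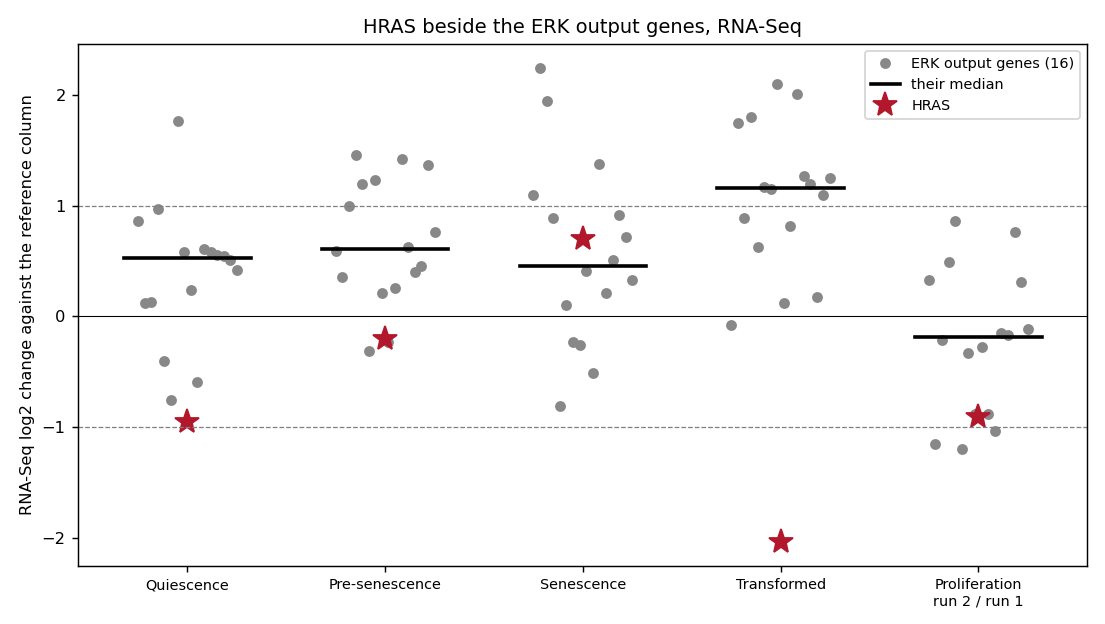
RNA-Seq log2 change of the 16 ERK output genes (grey points), their median (black bars) and HRAS (star) against the proliferating column of the same run, with the difference between the proliferating columns at the right. In the transformed column the list median is 1.16 while HRAS is at −2.04.

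Genes around the estrogen receptor were read against the same shares. Of 8 steroid receptors and relatives 3 had a row, and in senescence the glucocorticoid receptor gene NR3C1 was lower in RNA-Seq by 1.30 on the log2 scale. Of 11 estrogen response genes 5 had a row. CXCL12 was lower in every state, at 11.71 FPKM in quiescence and 11.93 FPKM in pre-senescence against 55.12, and at the floor in senescence and 3.75 FPKM in the transformed column against 34.43. CA12 was at the floor in senescence and lower by 1.21 in the transformed column. No other of the estrogen response genes was past 2-fold in RNA-Seq in these states, and none of the 7 receptor coregulators with a row, of 8, was.

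Rows whose pattern was most like that of a gene were ranked by Pearson r over the 12 columns, with RNA-Seq and Ribo-Seq each centred on its own mean, among 9101 rows. Nearest to HRAS were SLC17A9 at 0.96, STXBP6 at 0.95, CAMK1 at 0.92, and GPR1 and SLC39A3 at 0.91. Nearest to ESR1 were GYS1 at 0.93, EHD1 at 0.91, NLRP10 and IGFBP2 at 0.90 and FLNC at 0.89. For the others the nearest rows were RSRC1 for NRAS at 0.97, SH3GLB2 for RRAS at 0.94, UAP1 for RRAS2 at 0.90 and PHPT1 for MRAS at 0.95. These columns share libraries and runs, so the values describe likeness over 12 points and no more.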

How the data were processed

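RNA-Seq and Ribo-Seq of BJ cells were deposited by the authors as FPKM per Ensembl transcript, from reads aligned with Bowtie (version not given in the sources used here) to Ensembl release 65 transcripts, with hg19 named in the submitters' processing notes and uniquely mapped reads kept. Up to 5 mismatches were allowed in RNA-Seq and a seed of 25 nucleotides was used in Ribo-Seq. The authors set FPKM under 1.0 to 1.0 and combined samples 1 and 2 in 5 of 12 columns. The deposited table holds no depth, and the read totals in the study's supplement were not used, so no counting interval was computed.

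From these values log2 ratios, TE, ranks and counts past 2-fold were computed (Python 3.11.15, pandas 2.3.3, numpy 2.4.6), with the ratio and count code tested on simulated data. A limma fit, foreseen for states with several columns, could not be made with 1 column per state and run. The genes and lists were chosen with earlier results of these data known. Named list genes are up to 3 per list with the largest RNA-Seq change past 2-fold, and the engineered genes. Some list genes and part of the engineered background of the transformed cells are not reported here. Pattern likeness used rows reaching 5 FPKM in a column. Controls, scaling, pseudocounts, filters, fold marks and the swapped Ribo-Seq labels were varied.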

Additional observations from a re-analysis of the deposited data

Results flagged for a closer look

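Between day 5 and day 14 of RASG12V induction several of the 6 genes moved in opposite directions against the proliferating column of their own run. These states were sequenced in different runs with 1 column each, and the difference between them was not tested. The senescence change minus the pre-senescence change, on the log2 scale, was 0.90 for HRAS in RNA-Seq and 1.07 in Ribo-Seq. For ESR1 it was 0.78 in RNA-Seq, 1.76 in Ribo-Seq and 0.98 in TE. For RRAS2 it was 0.48 in RNA-Seq, 1.47 in Ribo-Seq and 0.98 in TE. In RNA-Seq it was −1.07 for NRAS, 0.68 for RRAS and −0.12 for MRAS, where RRAS in pre-senescence and MRAS at both times were within 0.1 of 0.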

How the results depend on the processing

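No paired analysis was possible because samples 1 and 2 are combined in the columns and no state has separate replicates, and leaving out a replicate was not run for the same reason. Of 528 recomputed changes of the 6 genes 407 moved by less than the spread of the proliferating columns and 117 moved by more. The other 4 were past 2-fold and changed sign. Values under 2-fold that changed sign, as several HRAS values below did, are counted by the size of their move only. The total depends on the mix of alternatives. Median centring and upper quartile scaling each gave 88 changes within the spread, and could not have done otherwise. The spread was 0.39 in RNA-Seq, 0.533 in Ribo-Seq and 0.409 in TE on the log2 scale. Column medians lay from 3.89 to 4.05 in RNA-Seq and from 4.22 to 4.36 in Ribo-Seq, and the upper quartiles were as close. With the control of the other run 20 moved by less, 48 by more and 3 that were past 2-fold changed sign. With the mean of both controls 36 moved by less and 35 by more. With the swapped labels 2 moved by less, 31 by more and 1 that was past 2-fold changed sign. The lower HRAS and ESR1 values of the transformed column kept their direction and stayed past 2-fold under every alternative run. With the proliferating column of the other run, in the order quiescence, pre-senescence, senescence and transformed, HRAS was −0.03, 0.71, −0.21 and −2.95 in RNA-Seq and 0.74, 1.11, −0.25 and −4.49 in Ribo-Seq, and ESR1 in RNA-Seq was −3.45, −2.68, 2.91 and −4.26. With the mean of both controls these were −0.49, 0.26, 0.25 and −2.50, then 0.14, 0.50, 0.36 and −3.88, then −2.25, −1.48, 1.70 and −5.47. MRAS changed sign with the other control in quiescence, to −1.16 in Ribo-Seq and −0.08 in TE, and in the transformed column, to 0.92 in Ribo-Seq. With the title and condition of the 2 Ribo-Seq samples swapped, senescence read −0.96 for HRAS and −1.13 for ESR1, and the transformed column −4.24 and −5.91. On log2(FPKM + 1) ESR1 in the transformed column was −5.68 in RNA-Seq. The cause of these shifts, beyond the changed reference column, was not tested.

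Rows past 2-fold in quiescence, pre-senescence, senescence, transformed and senescence against transformed were 619, 366, 1947, 994 and 2248 in RNA-Seq, 1662, 1692, 2675, 1226 and 2905 in Ribo-Seq, and 640, 1182, 756, 245 and 438 in TE. At 1.5-fold they were 1884, 1192, 3960, 2382 and 4361, then 3957, 3745, 4821, 2821 and 5085, then 2211, 3216, 2711, 1310 and 2089. With the study's mark, a multiple of the local SD of rows of like level, pre-senescence to the last gave 661, 652, 594 and 697 in RNA-Seq, all 5 gave 690, 663, 699, 611 and 690 in Ribo-Seq, and pre-senescence and transformed gave 665 each in TE. TE counts in quiescence and transformed were 381 and 142 among rows of at least 5 FPKM and 382 and 128 on log2(FPKM + 1). The mean of both controls gave 401 for TE in transformed. The other control gave 1080 for RNA-Seq in pre-senescence, 2064 for Ribo-Seq in transformed, and 1597 and 1147 for TE in senescence and transformed. The label swap gave 2905 and 1226 for Ribo-Seq in transformed and senescence against transformed, and 4049, 2166 and 1835 for TE in senescence, transformed and senescence against transformed. The counting error of low rows such as MRAS was not computed, since the table holds no counts.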
